A study of Mus musculus with 16 samples.

Results

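The foamy macrophage genes described here are 10 rows of the deposited count table, Spp1, Gpnmb, Trem2, Lgals3, Cd9, Fabp5, Plin2, Lpl, Cd36 and Msr1, of 55356 gene rows in all. They were taken as a named list of genes of TREM2-type, lipid-laden plaque macrophages. No cutoff on measured values was used, but the list was chosen with earlier results of these data known. Transcripts were counted in sections of the brachiocephalic artery, the first vessel off the aortic arch and a site of plaques in mice fed cholesterol. The 16 libraries came from 16 female mice in 4 groups of 4: Apoe-/-Mif-/- mice after 42 weeks of a Western-type diet (0.2% cholesterol, 21.2% fat), Apoe-/- mice after 42 weeks, Apoe-/-Mif-/- mice after 24 weeks and Apoe-/- mice after 24 weeks. All mice lacked Apoe, whose loss raises plasma cholesterol, and the controls carried that deletion too. The diet began at 6 weeks of age, so the mice were 48 or 30 weeks old at the end. Mif encodes macrophage migration inhibitory factor, a cytokine, and the labels name no promoter or cell type that limits its deletion. Tissue of several sections was pooled per mouse, so each library is 1 mouse. The study asked how aging and the lack of Mif relate in atherosclerosis.

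Macrophages in plaques take up lipoproteins through scavenger receptors, break them down in lysosomes and store cholesterol as esters in lipid droplets, which gives them their foamy look. TREM2 is a surface receptor that senses lipids and signals through the adaptor TYROBP, and in mouse plaques it marks foamy macrophages that express Spp1, Gpnmb, Lgals3, Cd9 and Fabp5. Several of these genes are also active in other cells: Cd36, Lpl and Plin2 in fat and muscle, and Spp1 in smooth muscle cells that have changed their state.

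The promoters of 4 members are shown because Spp1 gives the list its centre and because Gpnmb, Lgals3 and Plin2 each had groups that did not overlap in at least 1 comparison. RefSeq sequences of build GRCm38.p6 were at hand for 7 of the 10 members, each covering 250 bases before and 50 bases after a transcription start; Fabp5, Lpl and Msr1 had no entry. The letters of 12 motifs were searched on both strands, and capitals mark every match.
Spp1, first start, chr5:104434861-104435160, plus strand: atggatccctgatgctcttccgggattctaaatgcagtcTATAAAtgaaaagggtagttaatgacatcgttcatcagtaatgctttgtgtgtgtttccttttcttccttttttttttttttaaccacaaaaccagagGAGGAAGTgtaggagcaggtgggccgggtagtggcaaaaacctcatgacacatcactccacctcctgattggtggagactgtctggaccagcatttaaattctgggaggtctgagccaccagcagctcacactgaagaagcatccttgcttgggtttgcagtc
Spp1, second start, chr5:104435942-104436241, plus strand: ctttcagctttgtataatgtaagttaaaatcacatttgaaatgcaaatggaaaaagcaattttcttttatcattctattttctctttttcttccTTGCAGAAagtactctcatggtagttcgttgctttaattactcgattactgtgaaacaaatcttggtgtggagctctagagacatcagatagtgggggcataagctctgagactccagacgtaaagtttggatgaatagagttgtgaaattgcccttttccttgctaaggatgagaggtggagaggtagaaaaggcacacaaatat
Gpnmb, chr6:49036268-49036567, plus strand: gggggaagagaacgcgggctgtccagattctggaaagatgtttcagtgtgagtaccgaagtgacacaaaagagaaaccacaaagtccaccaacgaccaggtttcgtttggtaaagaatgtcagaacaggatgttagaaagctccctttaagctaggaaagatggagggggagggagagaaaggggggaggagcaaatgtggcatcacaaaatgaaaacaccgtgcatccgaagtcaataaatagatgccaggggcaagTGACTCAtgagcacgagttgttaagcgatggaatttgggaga
Lgals3, chr14:47373610-47373909, plus strand: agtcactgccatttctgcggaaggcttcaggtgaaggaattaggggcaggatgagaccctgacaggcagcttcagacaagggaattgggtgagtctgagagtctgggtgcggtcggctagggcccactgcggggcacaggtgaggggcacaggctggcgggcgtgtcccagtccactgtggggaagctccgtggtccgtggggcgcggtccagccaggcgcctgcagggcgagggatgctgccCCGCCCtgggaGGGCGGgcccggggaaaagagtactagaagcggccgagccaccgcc
Plin2, chr4:86670010-86670309, minus strand: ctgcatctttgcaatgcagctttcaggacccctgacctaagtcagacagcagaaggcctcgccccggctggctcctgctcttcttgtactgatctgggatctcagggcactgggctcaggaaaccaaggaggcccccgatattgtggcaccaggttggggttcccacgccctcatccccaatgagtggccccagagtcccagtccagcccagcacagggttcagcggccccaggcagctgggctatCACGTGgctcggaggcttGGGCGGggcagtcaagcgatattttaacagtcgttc

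The motifs were an E-box (CACGTG) bound by MITF and TFEB among others, the longer CLEAR element of lysosomal genes (GTCACGTG), the M-box of MITF (TCATGTG) and a second E-box inside it (CATGTG). They further held the AP-1 site (TGANTCA), the PU.1 site of myeloid genes (GAGGAAGT) with its own core (GAGGAA), the C/EBP site (TTGCNNAA) and the TATA box (TATAAA). The last were the DR1 element of nuclear receptors, the GC box (GGGCGG) and the antioxidant element (TGACNNNGC). The E-box lies within the CLEAR element, the second E-box within the M-box and the core within the PU.1 site. At its first start Spp1 held a PU.1 match 113 bases upstream (3.2% of all 32851 promoters hold that motif) and a TATA match 211 bases upstream (13.6%), and at its second start a C/EBP match (10.8%). Gpnmb held an AP-1 match just after the start, and Trem2, whose sequence is not shown, held one just before it (7.81%). Plin2 held the E-box CACGTG (7.15%), and Plin2, Lgals3, Cd9 and Cd36 held GC boxes, as did 35.7% of all promoters. The M-box, the CLEAR element, the DR1 element and the antioxidant element were not found in these windows of the 7 members, in 3.77%, 2.25%, 0.0396% and 12.4% of all promoters. These are matches of letters in the reference and say nothing of binding in the arteries.

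All 10 members passed the filter on low counts, and 10634 genes were tested. Library totals ran from 378066 to 8649518 counts. Mif, the deleted gene, lay at 2.39 to 19.9 CPM (deposited counts over the library total times its TMM factor) in the 8 libraries without Mif, against 23.2 to 301 CPM in the 8 with it. Apoe transcripts, from the gene deleted in all mice, ran from 2.58 to 1127 CPM. The highest value was that of library 4 of the Apoe-/- mice at 42 weeks, and the next highest was 194 CPM. Mitochondrial transcripts took 0.751% to 10.2% of a library. The expected cell types were present: 7 contractile smooth muscle markers summed to 725 to 16960 CPM, 6 endothelial markers to 109 to 3780 CPM and 13 pan-macrophage markers to 1372 to 20771 CPM, with Cd68 detected in every library. The column names read as plate positions. The 4 Apoe-/-Mif-/- libraries at 24 weeks fill row C and the other 12 row B, so row and group cannot be told apart there. Mif deletion at 42 weeks and 42 against 24 weeks in Apoe-/- mice lie wholly within row B, where each group fills adjacent positions. Libraries 1 and 4 of the Apoe-/- mice at 24 weeks stood apart. Their white adipocyte markers summed to 15502 and 5411 CPM, against 88.3 and 1914 CPM in libraries 2 and 3, and their pan-macrophage markers to 1372 and 2936 CPM, against 4951 and 9418 CPM. Striated muscle markers summed to 5345 and 2938 CPM, against 66.5 and 79.9 CPM. Contractile smooth muscle markers summed to 725 and 2645 CPM, against 11578 and 10070 CPM. T cell markers summed to 31.8 CPM in library 1 and 3323 CPM in library 4, against 4.56 and 69.7 CPM.

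Osteopontin was among the most abundant transcripts of the artery in every group, and with all 16 libraries no difference by genotype or diet duration was detectable beyond the spread between mice. Spp1, which encodes this secreted matrix glycoprotein, took 0.324% to 3.66% of a library's counts. It was the most abundant gene in 7 of 16 libraries, and its lowest rank was 26. Per kilobase of exon the median over the 16 libraries was 9417 CPM for Spp1, the highest of the 10 members. The next were Lgals3 at 2063, Cd9 at 628, Gpnmb at 292 and Plin2 at 232 CPM per kilobase, and the lowest were Cd36 at 22.8 and Msr1 at 4.75. The ranges of neighbours in this order overlapped.

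Spp1 had 17264, 11843, 16811 and 23919 CPM without Mif (Apoe-/-Mif-/-) at 42 weeks, against 18930, 12929, 14228 and 9642 CPM in Apoe-/- arteries at 42 weeks. At 24 weeks it had 25193, 28693, 8965 and 12667 CPM in Apoe-/-Mif-/- arteries, against 3542, 23337, 34438 and 5179 CPM in Apoe-/- arteries. The groups overlapped in all 4 pairwise comparisons, and the widest spread, nearly all of it between libraries 1 and 4 and libraries 2 and 3, was in Apoe-/- mice at 24 weeks. The fitted log2 fold changes were 0.33 ± 0.47 (SE) for Mif deletion at 42 weeks (95% interval -0.63 to 1.28) and 0.18 ± 0.47 at 24 weeks (-0.77 to 1.13). Between 42 and 24 weeks they were -0.11 ± 0.47 in Apoe-/-Mif-/- mice (-1.06 to 0.84) and -0.25 ± 0.47 in Apoe-/- mice (-1.21 to 0.70). Both duration differences of Spp1 turned positive with RLE size factors (0.36 in Apoe-/-Mif-/- and 0.35 in Apoe-/- mice), and both genotype differences kept their sign. Without libraries 1 and 4 of the Apoe-/- mice at 24 weeks, a setting chosen after seeing the data, Spp1 lay lower at 42 than at 24 weeks in Apoe-/- mice with no overlap (log2 fold change -1.08, adjusted p = 0.536 by edgeR's quasi-likelihood test with Benjamini-Hochberg adjustment). The genotype difference of Spp1 at 24 weeks was then -0.64.

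**Figure D1:**
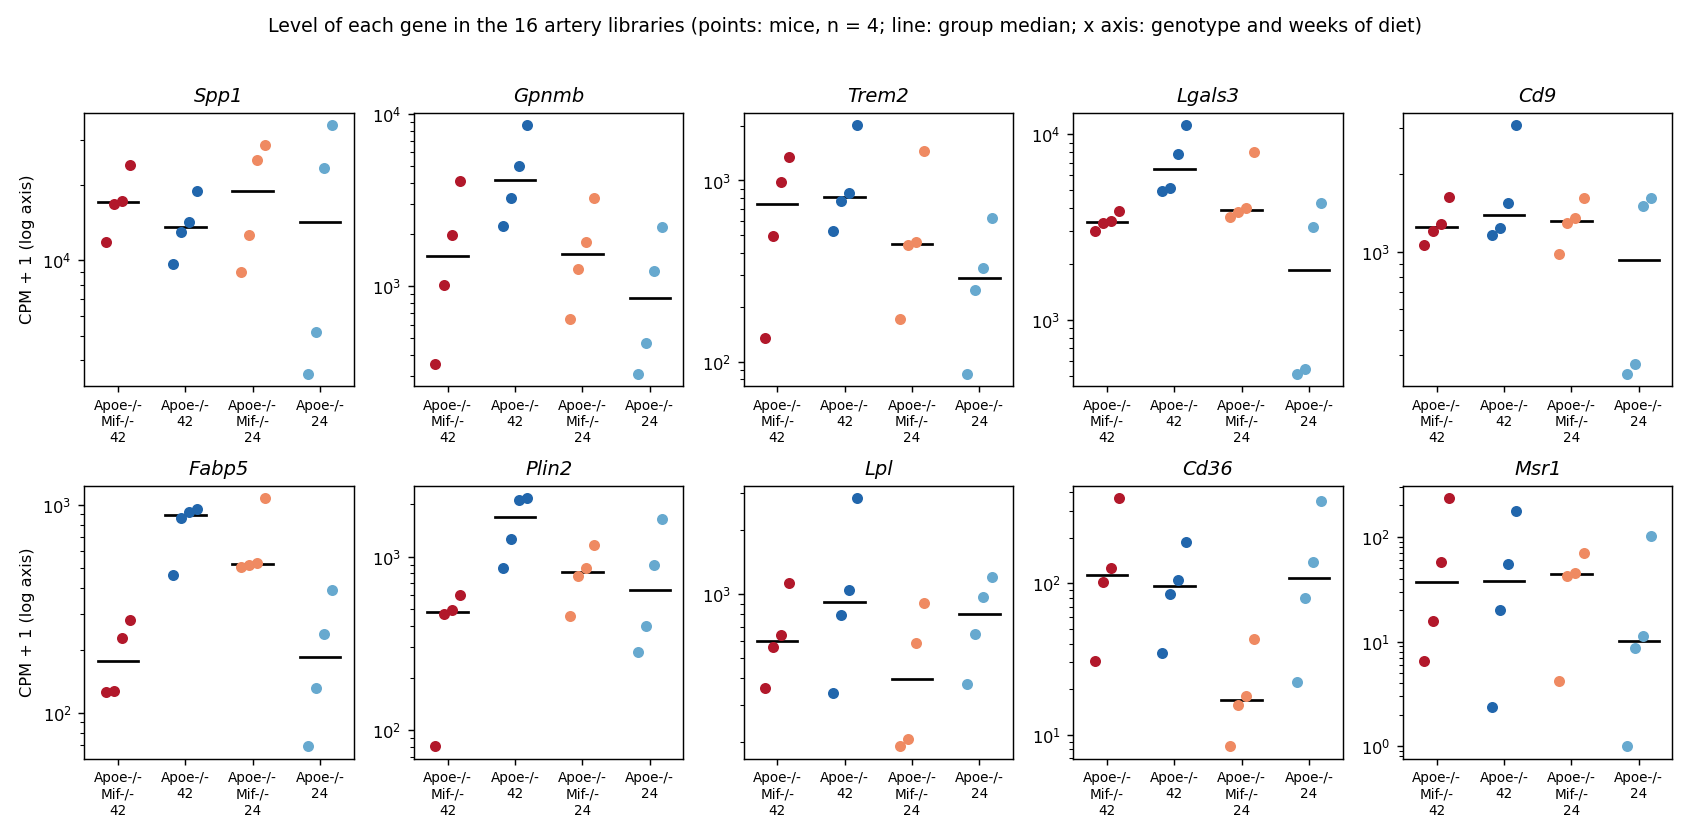
Levels of the 10 members as CPM + 1 on a log axis, 1 panel a gene and 1 point a library, with the 4 groups of 4 libraries side by side and a line at each group's median. Points are sorted by value within a group. The groups of Spp1 overlap, and Fabp5 is lowest in Apoe-/-Mif-/- at 42 weeks and in Apoe-/- at 24 weeks.

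After 42 weeks of diet, arteries without Mif had lower values of Fabp5, Plin2 and Lgals3 in every library than arteries with it, but none of the 10 members passed the test over all genes. With RLE size factors, and on the deposited log2 values, 1 of these 3 stayed apart, Fabp5. In this comparison 0% of the 10634 genes were called, with edgeR's quasi-likelihood test and Benjamini-Hochberg adjustment, and 17.3% had an unadjusted p under 0.05, against 4 of 10 members. DESeq2 called 709 of 10136 genes here and no member. The groups did not overlap for 3 members, Fabp5, Lgals3 and Plin2, all lower without Mif, against 1.03% of all genes in that direction and 2.2% in either. The members' median log2 fold change was -0.70, against 0.093 over all genes. Of the 10, 3 were fitted higher and 7 lower, against 51.8% of all genes fitted higher. Without library 2 of the Apoe-/- mice 5 of 10 were fitted higher, with a members' median of 0.0008, against 0.41 over all genes. Without library 1 of the Apoe-/-Mif-/- mice 1 of 10 was fitted higher, with a members' median of -0.88, against -0.092 over all genes. Because tissue was taken whole, fewer cells of a type and less RNA per cell cannot be told apart in any value given here.

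Fabp5, a cytosolic carrier of fatty acids, had 127, 279, 228 and 126 CPM without Mif (Apoe-/-Mif-/-) at 42 weeks, against 925, 956, 860 and 457 CPM in Apoe-/- arteries. Every library without Mif lay below every library with it, by a log2 fold change of -2.08 ± 0.74 (SE; unadjusted p = 0.0077, adjusted p = 0.180 by edgeR's quasi-likelihood test with Benjamini-Hochberg adjustment). Plin2, which coats lipid droplets in many cell types, had 79.6, 599, 468 and 492 CPM, against 860, 2114, 1269 and 2173 CPM. The Plin2 groups did not overlap either, and library 1 without Mif was the lowest by far (log2 fold change -1.97 ± 0.69, adjusted p = 0.179 by the same edgeR test).

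Lgals3, which encodes galectin-3, a lectin of macrophage membranes and phagosomes, had 3399, 3876, 3338 and 2987 CPM without Mif (Apoe-/-Mif-/-) at 42 weeks, against 4953, 11144, 5124 and 7824 CPM in Apoe-/- arteries. The 4 libraries without Mif were close to each other and all below those with it (log2 fold change -1.09 ± 0.54, adjusted p = 0.289 by edgeR's quasi-likelihood test with Benjamini-Hochberg adjustment). Gpnmb, a glycoprotein of lysosomes and the cell surface, had 351, 4077, 1991 and 1022 CPM, against 2245, 8588, 3254 and 4976 CPM. Its groups overlapped through library 2 without Mif (log2 fold change -1.36 ± 0.66, adjusted p = 0.281 by the same edgeR test). The other 5 members, Trem2, Cd9, Lpl, Cd36 and Msr1, had log2 fold changes from -0.90 to 0.59.

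Pan-macrophage markers overlapped between these groups. The 13 markers summed to 3924 to 18804 CPM without Mif (Apoe-/-Mif-/-) at 42 weeks, against 9725 to 20771 CPM in Apoe-/- arteries, with 12 or 13 of 13 detected and Itgam the only one at 0, in 1 library without Mif. None of the 13 was called, and 8 were fitted lower, against 48.2% of all genes. White adipocyte markers summed to 80.7 to 25271 CPM without Mif, against 385 to 12062 CPM with it, and Lep was at 0 in 3 libraries of each group. After subtraction of the pan-macrophage score (the mean log2 CPM of the 13 markers), Fabp5 lay at -0.65 to 0.99 without Mif, against 1.181 to 2.62 with it, and its groups did not overlap on that scale. On the same scale Plin2 lay at -0.20 to 2.70 without Mif, against 2.35 to 3.43 with it, and Lgals3 at 3.22 to 5.30, against 4.37 to 5.28. So 2 of the 3 members that were apart in CPM overlapped on that scale. As a log2 ratio to Cd68 alone, Fabp5 lay at -3.43 to -1.99 without Mif, against -3.11 to 0.18 with it, and overlapped. The subtraction of the score was chosen after the values were seen, and neither scale carries a test. The share of all genes apart on these scales was not computed.

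After 24 weeks the members lay the other way for Fabp5 and Lgals3, and again none of the 10 passed. Here 0.047% of all genes were called by edgeR's quasi-likelihood test with Benjamini-Hochberg adjustment, and 7.33% had an unadjusted p under 0.05, against 3 of 10 members. DESeq2 called 262 of 11189 genes here and no member. The groups did not overlap for 1 member, Fabp5, which was higher without Mif, against 1.55% of all genes in that direction and 3.84% in either. The members' median log2 fold change was 0.43, against -0.18 over all genes. Of the 10, 8 were fitted higher and 2 lower, against 45.1% of all genes fitted higher. Without libraries 1 and 4 of the Apoe-/- group, a setting chosen after seeing the data, 4 of 10 were fitted higher. The members' median was then -0.14, against 0 over all genes.

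Fabp5 had 513, 1077, 500 and 525 CPM without Mif (Apoe-/-Mif-/-) at 24 weeks, against 131, 238, 390 and 68.1 CPM in Apoe-/- arteries. All 4 libraries without Mif were above the 4 with it (log2 fold change 1.66 ± 0.73, unadjusted p = 0.028, adjusted p = 0.597 by edgeR's quasi-likelihood test with Benjamini-Hochberg adjustment), and without libraries 1 and 4 of the Apoe-/- group the log2 fold change was 1.04. Lgals3 had 4021, 7993, 3574 and 3790 CPM, against 512, 3144, 4262 and 542 CPM. Here the values overlapped, since library 3 with Mif lay above 3 of the libraries without it (log2 fold change 1.20 ± 0.54, adjusted p = 0.628 by the same edgeR test, and 0.37 without libraries 1 and 4 of the Apoe-/- group).

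The pan-macrophage markers summed to 5876 to 11164 CPM without Mif (Apoe-/-Mif-/-) at 24 weeks, against 1372 to 9418 CPM in Apoe-/- arteries. Of the 13, 12 were fitted higher and none was called, with a median log2 fold change of 0.90, against -0.18 over all genes. With the score of these markers as a term in the fit, 3 of the 10 members were fitted higher. The members' median log2 fold change was then -0.019, against -0.25 over all genes. Fabp5 minus that score lay at 0.82 to 1.86 without Mif, against 0.35 to 1.91 with it, and the groups overlapped.

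Cd36, a scavenger receptor and fatty acid transporter, had 17.0, 41.8, 14.8 and 7.4 CPM without Mif (Apoe-/-Mif-/-) at 24 weeks, against 349, 21.3, 79.4 and 136 CPM in Apoe-/- arteries. The highest value, in library 1 with Mif, came with the highest white adipocyte sum of its group (log2 fold change -2.85 ± 1.14, adjusted p = 0.499 by edgeR's quasi-likelihood test with Benjamini-Hochberg adjustment). The same library had the group's highest sums of brown adipocyte markers (15685 CPM) and striated muscle markers (5345 CPM). Which tissue gave the Cd36 transcripts was not tested. In that library Plin2 at 1640 CPM and Lpl, the secreted lipase that frees fatty acids from lipoproteins, at 1201 CPM were also the highest of the group. The white adipocyte markers summed to 19.6 to 628 CPM in the 4 libraries without Mif, against 88.3 to 15502 CPM with it. Of the 11 markers, 8 to 10 were detected without Mif, with Lep at 0 in all 4 of its libraries, Aqp7 in 3 and Cidec in 1, against 10 or 11 with it, where Lep was at 0 in 3. The log2 fold change of Cd36 was -0.92 in a fit that held the white adipocyte score as a term, and -1.34 without libraries 1 and 4 of the Apoe-/- group. The other 6 members, Gpnmb, Trem2, Cd9, Plin2, Lpl and Msr1, had log2 fold changes from -0.75 to 0.97.

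**Figure D2:**
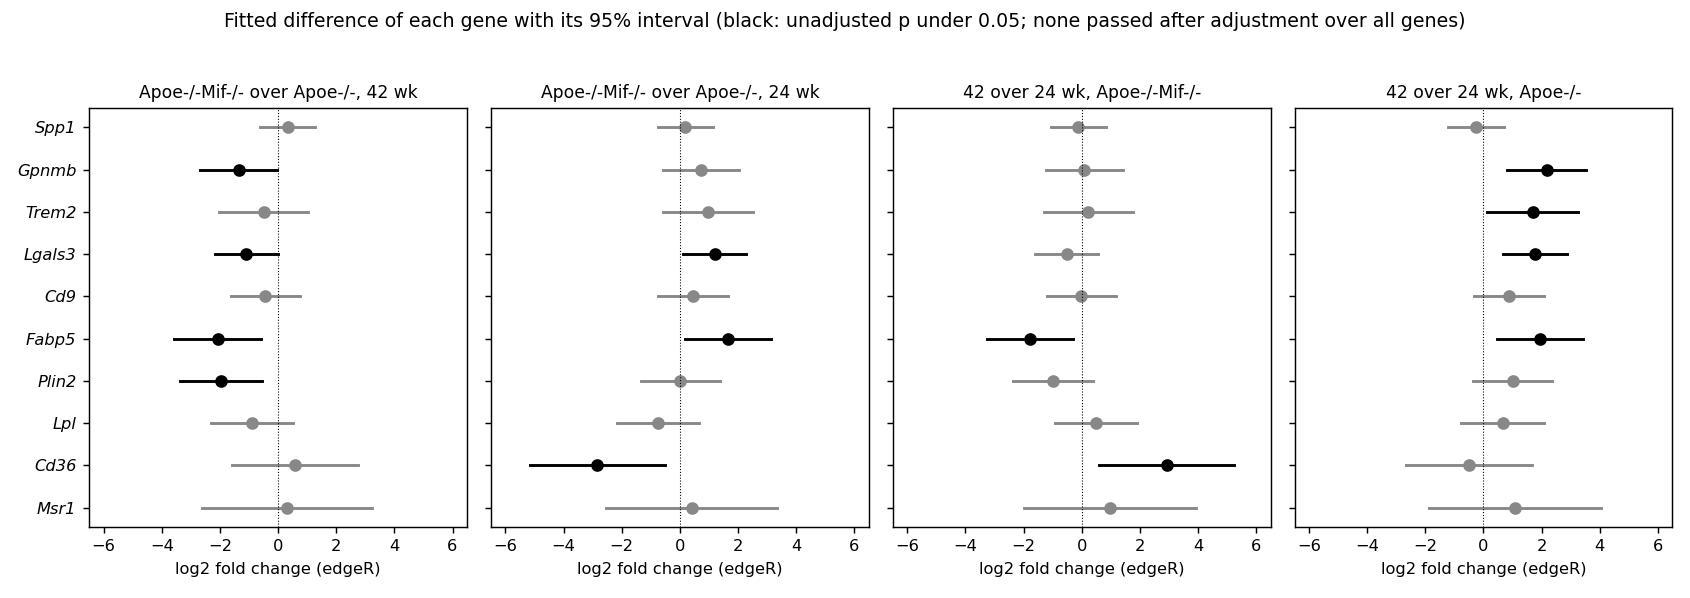
Fitted log2 fold change of each member (x axis, with 95% interval) in the 4 pairwise comparisons, each in its own panel, with black for an unadjusted p under 0.05 and grey otherwise. Intervals of Spp1 span 0 in all panels, and Fabp5 lies below 0 at 42 weeks and above 0 at 24 weeks for Mif deletion.

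In Apoe-/- mice Lgals3, Gpnmb and Fabp5 were higher in every library after the longer diet, though none passed in edgeR. Scaled by library totals alone Fabp5 overlapped, and with RLE size factors Trem2 and Cd9 were apart as well. With RLE size factors the median log2 fold change over all genes was 0.16, against -0.12 in the reported fit. The share of all genes apart under these scalings was not computed. In this comparison 0% of all genes were called by edgeR's quasi-likelihood test with Benjamini-Hochberg adjustment, and 12.2% had an unadjusted p under 0.05, against 4 of 10 members. The groups did not overlap for 3 members, Fabp5, Gpnmb and Lgals3, all higher at 42 weeks, against 1.06% of all genes in that direction and 4.16% in either. The median log2 fold change was 1.04 over the members, against -0.12 over all genes, and 8 of 10 were fitted higher, against 47.3% of all genes. The 24 week libraries of this comparison also serve in the comparison of Mif deletion at 24 weeks, and the 42 week ones in that at 42 weeks.

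Lgals3 had 4953, 11144, 5124 and 7824 CPM in Apoe-/- arteries at 42 weeks, against 512, 3144, 4262 and 542 CPM at 24 weeks (log2 fold change 1.78 ± 0.55, unadjusted p = 0.0025, adjusted p = 0.322 by edgeR's quasi-likelihood test with Benjamini-Hochberg adjustment). Gpnmb had 2245, 8588, 3254 and 4976 CPM at 42 weeks, against 311, 1233, 2208 and 470 CPM at 24 weeks (log2 fold change 2.17 ± 0.67, adjusted p = 0.322 by the same edgeR test). For both, all 4 arteries at 42 weeks lay above all 4 at 24 weeks, for Gpnmb by 2245 against 2208 CPM at the nearest. Among the fits with 1 library left out, Gpnmb stayed apart only without library 1 at 42 weeks or library 3 at 24 weeks of this genotype. DESeq2, which called 330 of 10684 genes here, called Fabp5 (log2 fold change 2.41, adjusted p = 0.0245) and Lgals3 (2.33, adjusted p = 0.0491). In edgeR Fabp5 had a log2 fold change of 1.95 ± 0.73 and Trem2, the lipid-sensing receptor itself, of 1.70 ± 0.77.

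Trem2 had 852, 2012, 765 and 525 CPM in Apoe-/- arteries at 42 weeks, against 327, 247, 620 and 85.0 CPM at 24 weeks, and the groups overlapped by 1 library. Without libraries 1 and 4 of the 24 week group the log2 fold changes were 1.32 for Fabp5, 0.95 for Lgals3 and 1.45 for Gpnmb. The members with an unadjusted p under 0.05 then numbered 1, Spp1, which was lower at 42 weeks. The pan-macrophage sums were 9725 to 20771 CPM at 42 weeks, against 1372 to 9418 CPM at 24 weeks, and did not overlap. The pan-macrophage score did overlap, at 7.23 to 8.64 at 42 weeks, against 5.13 to 8.06 at 24 weeks. Taken singly, 2 of the 13 markers were apart, both higher at 42 weeks, against 1.06% of all genes in that direction. Beside the pan-macrophage score, Gpnmb lay at 3.71 to 4.62 at 42 weeks, against 3.05 to 3.15 at 24 weeks. The Gpnmb groups did not overlap on that log2 scale. It carries no test, and the share of all genes apart on it was not computed. Lgals3 lay at 4.37 to 5.28 at 42 weeks, against 3.33 to 4.46 at 24 weeks, and Fabp5 at 1.181 to 2.62, against 0.35 to 1.91, so both overlapped there. As a log2 ratio to Cd68 alone, Gpnmb lay at 0.33 to 1.46 at 42 weeks, against 0.47 to 2.45 at 24 weeks, and overlapped. Of the 13 pan-macrophage markers 11 were fitted higher at 42 weeks, none was called by edgeR, and DESeq2 called C1qa, among 330 of 10684 genes.

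In Apoe-/-Mif-/- mice the members split evenly, 5 fitted higher and 5 lower at 42 weeks, against 52.9% of all genes fitted higher. That split depended on the scaling, with 8 of 10 higher under RLE size factors and 3 of 10 under library totals alone. The median over all genes moved with it. The members' median was 0.60 with RLE size factors, against 0.54 over all genes, and -0.38 with library totals alone, against -0.27. In the reported fit the members' median log2 fold change was 0.041, against 0.12 over all genes. Here 0.122% of all genes were called by edgeR's quasi-likelihood test with Benjamini-Hochberg adjustment, but no member, and 13.1% had an unadjusted p under 0.05, against 2 of 10 members. Fabp5 was the only member whose groups did not overlap, lower at 42 weeks, against 3.03% of all genes in that direction and 4.38% in either, and with RLE size factors no member was apart. It had 127, 279, 228 and 126 CPM at 42 weeks, against 513, 1077, 500 and 525 CPM at 24 weeks (log2 fold change -1.79 ± 0.73, adjusted p = 0.293 by the same edgeR test). Cd36 had 363, 100, 29.5 and 125 CPM at 42 weeks, against 17.0, 41.8, 14.8 and 7.4 CPM at 24 weeks (log2 fold change 2.92 ± 1.15, adjusted p = 0.278 by the same edgeR test). DESeq2, which called 539 of 10419 genes here, called Cd36 (log2 fold change 3.70, adjusted p = 0.0135). At 42 weeks 3 of 4 libraries lay above all 4 at 24 weeks, and white adipocyte markers summed to 80.7 to 25271 CPM, against 19.6 to 628 CPM at 24 weeks. The highest Cd36 at 42 weeks, in library 1, came with a white adipocyte sum of 12099 CPM. The highest sum, in library 2, came with 100 CPM of Cd36. The Cd36 difference was 1.28 on the log2 scale in a fit with the white adipocyte score as a term. This comparison crosses the plate rows.

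**Figure D3:**
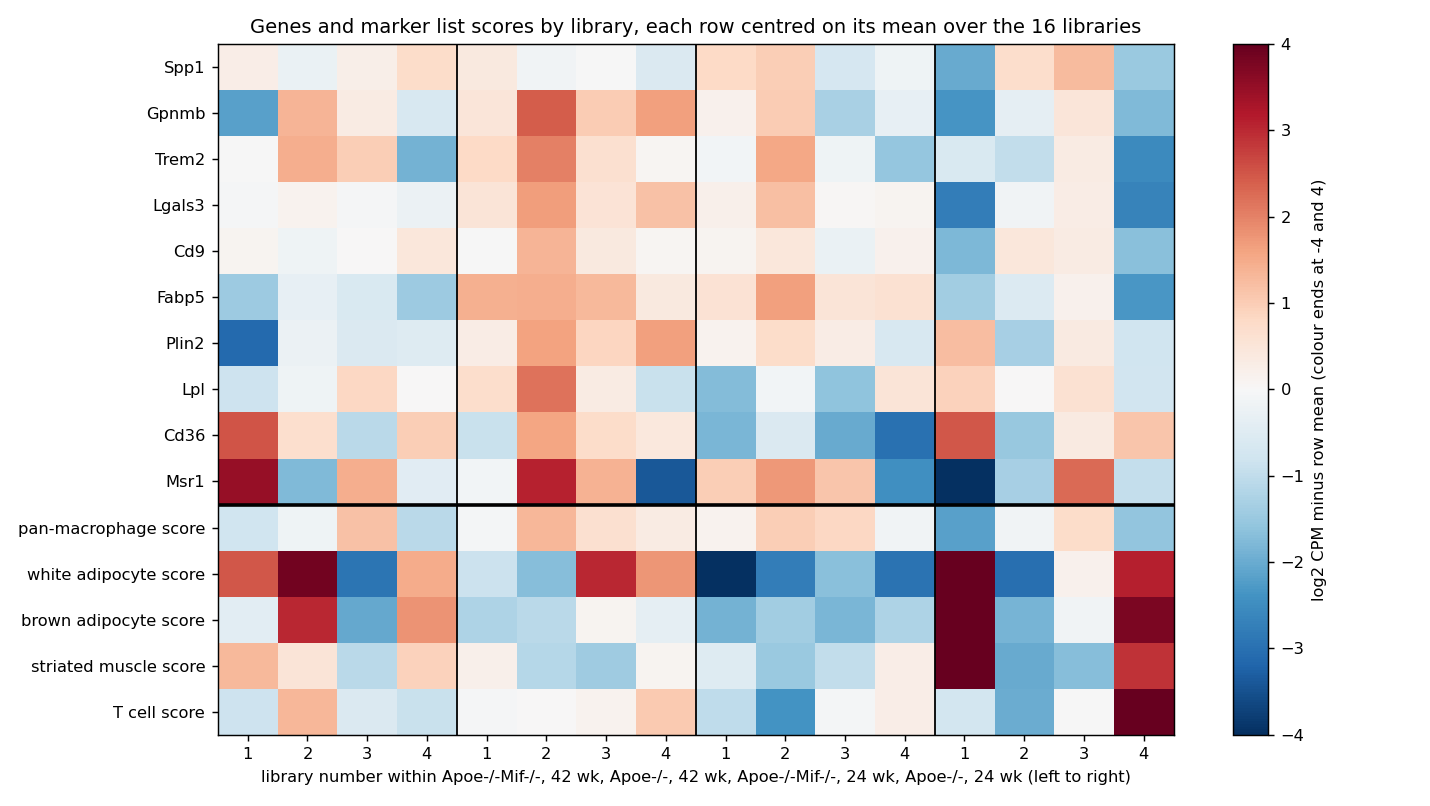
Log2 CPM of each member minus its mean over the 16 libraries, with libraries as columns in their groups and genes as rows, colours ending at 4 below and above, and below the genes the centred scores of 5 marker lists. Libraries 1 and 4 of Apoe-/- at 24 weeks are low for Spp1, Gpnmb, Lgals3, Cd9 and Fabp5 and high for the adipocyte and striated muscle scores.

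The genotype difference changed with the duration of the diet most for Fabp5. The interaction, the genotype effect at 42 weeks minus that at 24 weeks, was -3.74 ± 1.03 on the log2 scale for Fabp5 (95% interval -5.83 to -1.64, unadjusted p = 0.00089, adjusted p = 0.0770 by edgeR's quasi-likelihood test with Benjamini-Hochberg adjustment), which did not pass. Fabp5 was lower without Mif in 4 of 4 libraries at 42 weeks and higher in 4 of 4 at 24 weeks. Without libraries 1 and 4 of the Apoe-/- mice at 24 weeks it was -3.16 (adjusted p = 0.242 by the same edgeR test), and none of the 10 members passed. With all 16 libraries DESeq2 called the interaction of Fabp5 (-3.58, adjusted p = 0.0101), among 480 of 10940 genes called.

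Lgals3 had an interaction of -2.29 ± 0.76 (adjusted p = 0.149 by edgeR's quasi-likelihood test with Benjamini-Hochberg adjustment; -1.50 without libraries 1 and 4 of the Apoe-/- mice at 24 weeks), Gpnmb of -2.08 ± 0.92, Plin2 of -1.99 ± 0.96, Cd36 of 3.44 ± 1.55 (0.81 with the white adipocyte score as a term, 1.88 without the same 2 libraries) and Spp1 of 0.14 ± 0.66. Without library 3 of the Apoe-/- mice at 24 weeks Lgals3 passed, at -2.92 (adjusted p = 0.0446 by the same edgeR test). Of all genes 0.686% were called, and 14.2% had an unadjusted p under 0.05, against 5 of 10 members. Fitted values lay above 0 for 2 of 10 members, against 54% of all genes. The other 4, Trem2, Cd9, Lpl and Msr1, lay from -1.46 to -0.11. Msr1, the class A scavenger receptor, was the lowest member per kilobase, and its levels ran from 5.57 to 234 CPM in Apoe-/-Mif-/- and from 1.40 to 177 CPM in Apoe-/- arteries at 42 weeks. At 24 weeks they ran from 3.24 to 68.5 CPM in Apoe-/-Mif-/- and from 0 to 101 CPM in Apoe-/- arteries, so every pair of groups overlapped.

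Cd9 averaged 1294 ± 242 CPM (SD, n = 4) in Apoe-/-Mif-/- and 1751 ± 894 CPM in Apoe-/- arteries at 42 weeks, and 1306 ± 257 CPM in Apoe-/-Mif-/- and 954 ± 695 CPM in Apoe-/- arteries at 24 weeks. Lpl averaged 670 ± 323 CPM in Apoe-/-Mif-/- and 1252 ± 1094 CPM in Apoe-/- arteries at 42 weeks, and 473 ± 343 CPM in Apoe-/-Mif-/- and 795 ± 362 CPM in Apoe-/- arteries at 24 weeks. For both genes all pairs of groups overlapped.

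Other genes of the pathway were read from 6 lists. The list of TREM2 signalling and lipid-associated macrophage genes had 25 tested members, of which none was called by edgeR in any comparison, while DESeq2 called Tyrobp, the adaptor of TREM2, and Itgax for 42 against 24 weeks in Apoe-/- mice, and Fabp4, a fatty acid carrier abundant in adipocytes, for 42 against 24 weeks in Apoe-/-Mif-/- mice and for the interaction. In these comparisons DESeq2 called 330 of 10684, 539 of 10419 and 480 of 10940 genes, in that order. For 42 against 24 weeks in Apoe-/- mice 23 of the list's 25 were fitted higher, and for Mif deletion at 42 weeks 4 of 25, at 24 weeks 20 of 25. The list's median log2 fold changes were 1.40, -0.71 and 0.52 in that order, against -0.12, 0.093 and -0.18 over all genes. The 13 pan-macrophage markers had 11, 5 and 12 fitted higher in the same order, with medians of 1.43, -0.66 and 0.90, and their part in the list's values was not tested. The closest to passing at 42 against 24 weeks in Apoe-/- mice were Ctsd, a lysosomal protease (log2 fold change 1.81 ± 0.50), and Itgax, the integrin CD11c of inflammatory macrophages and dendritic cells (3.24 ± 1.01), both with adjusted p = 0.322 by edgeR's quasi-likelihood test with Benjamini-Hochberg adjustment. For Mif deletion at 42 weeks Itgax was at -2.98 ± 1.00 and Mmp12, the macrophage elastase, at -1.41 ± 0.71, neither of which passed.

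The lipid droplet list had 16 tested members, and 1 was called by edgeR for Mif deletion at 24 weeks (2 by DESeq2), where 14 were fitted lower with a median log2 fold change of -2.86, against -0.18 over all genes. This was Plin1, the droplet coat of fat cells, with 0.655, 0.410, 0.203 and 0.463 CPM in Apoe-/-Mif-/- arteries, against 708, 1.01, 67.3 and 410 CPM in Apoe-/- arteries (log2 fold change -9.39 ± 1.91, adjusted p = 0.0466 by edgeR's quasi-likelihood test with Benjamini-Hochberg adjustment). Its difference rested on libraries 1, 3 and 4 with Mif. Of 26 alternatives that gave a value Plin1 passed in 8, and those in which it did not pass include RLE size factors (adjusted p = 0.138 in edgeR), both limma fits and both covariates. It also missed without any 1 of 11 libraries, which were the 4 Apoe-/-Mif-/- libraries at 24 weeks, the 4 Apoe-/- libraries at 42 weeks, library 4 of Apoe-/-Mif-/- at 42 weeks and libraries 1 and 4 of Apoe-/- at 24 weeks. Plin1 also passed for 42 against 24 weeks in Apoe-/-Mif-/- mice (8.91) and for the interaction (12.58), as did Dgat2, which makes triglyceride, for the interaction (9.27). Over 26 alternatives these passed in 15, 16 and 16, in that order, and in neither limma fit nor with either covariate. The duration call of Plin1 was lost without library 2 of Apoe-/-Mif-/- at 42 weeks, any of the 4 at 24 weeks or library 1 of Apoe-/- at 24 weeks. Both interaction calls were lost without library 1, 2 or 4 of Apoe-/- at 42 weeks or library 1 of either group at 24 weeks. Plin1 is itself on the white adipocyte list, and the white adipocyte sums given above moved with it. Of the lipid droplet list DESeq2 also called 2 genes for Mif deletion at 42 weeks and 1 for 42 against 24 weeks in Apoe-/- mice. It called 5 for 42 against 24 weeks in Apoe-/-Mif-/- mice and 4 for the interaction.

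Among 7 tested partners of lipoprotein lipase, Gpihbp1, which carries the enzyme across capillary endothelium, was called for the interaction (log2 value 10.89). It passed in 15 of 26 alternatives, and in neither limma fit, with neither covariate, and not without library 1, 2, 3 or 4 of the Apoe-/- mice at 42 weeks, library 1 of either group at 24 weeks, or libraries 1 and 4 of the Apoe-/- mice at 24 weeks together. Gpihbp1 had 646, 39.0, 0.958 and 824 CPM without Mif (Apoe-/-Mif-/-) at 42 weeks, against 14.8, 2.66, 3.64 and 11.9 CPM in Apoe-/- arteries. Of 10 tested osteopontin receptors and processing genes, 9 other scavenger receptors and 12 lipid-sensing and lysosomal transcription factors and their targets, none was called by edgeR in any of the 5 comparisons, while the calls of DESeq2 include Stab2 for Mif deletion at 42 weeks. The nearest to passing for Mif deletion at 42 weeks were Mmp3, a protease that cleaves osteopontin (log2 fold change 1.39), Stab2, a scavenger receptor of endothelium (-5.33), and Abca1, the cholesterol exporter (-2.74).

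Across the 16 libraries Spp1 ran closest to Vim, which encodes vimentin. The measure was the root mean square difference of log2 CPM after each gene was centred on its mean, which favours genes that vary little. It was 0.559 for Vim, and next among genes outside the list came Prdx1 (0.639), Timp2 (0.651), H3f3a (0.672) and Sar1a (0.678). The nearest member was Cd9, a tetraspanin of the cell membrane, at 0.577 and rank 2 of 10633. Among members, Lgals3 and Cd9 ran closest (0.569) and Plin2 and Msr1 farthest apart (2.82). The libraries differ in depth and tissue content, which all genes share, so these values are a description.

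**Figure D4:**
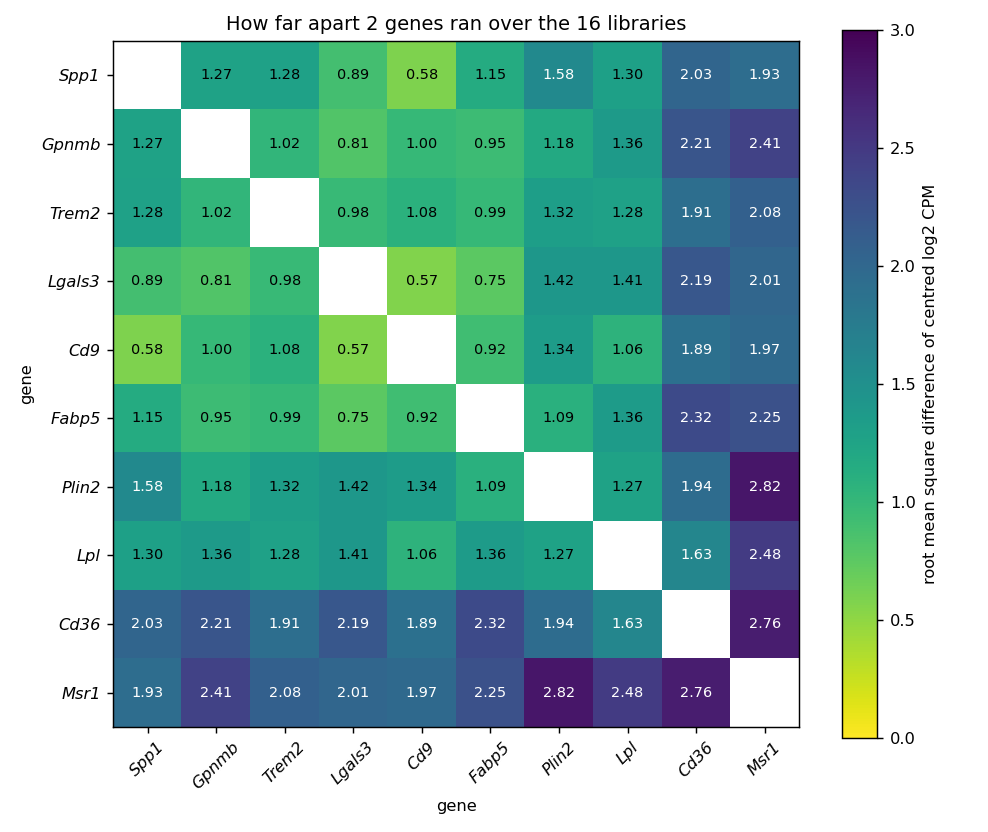
Root mean square difference of centred log2 CPM between each pair of members over the 16 libraries, as a square of genes against genes, lower meaning more alike. Cd9 with Lgals3 and Cd9 with Spp1 are the closest pairs, and Cd36 and Msr1 stand apart from all others.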

How the data were processed

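The submitters' processing notes name cutadapt 1.18, Trim Galore 0.6.4 and FastQC 0.11.5 for read trimming and quality, STAR 2.5.2b as the aligner, and the build GRCm39. The counter and the annotation are not given in the sources used here. The deposited count table holds raw whole-number counts per gene from Smart-seq2 libraries (1 ng of RNA, sections of 5 µm, no molecular identifiers and no strand, per the labels' protocols), so overlapping and antisense genes cannot be told apart. Near copies of Fabp5 and Cd9 held 7 and 14 counts, against 24427 and 73409. The authors also deposited a table of variance-stabilised values on a log2 scale, used only as an alternative. Of 55359 rows 3 were left out (blank, GFP, TDTOM); the blank row took at most 0.00257% of a library.

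Each library is a separate mouse, numbered within its group by order only. The test on counts was that of edgeR 4.0.16 under R 4.3.3 (quasi-likelihood, TMM, filterByExpr at a minimum count of 10 and total of 15, 1 fit over 16 libraries with 12 residual degrees of freedom before the prior, Benjamini-Hochberg adjustment over 10634 genes, called under 0.05). The standard error is the log2 fold change over the root of F, and 95% intervals use the test's total degrees of freedom. Log2 CPM used a prior count of 2. Lengths are union exons of GENCODE annotation for another build, used as lengths alone. The scripts were tested on simulated data, which held no differences in tissue content between the libraries of a group. Alternatives were DESeq2 1.42.0, limma 3.58.1 on voom and on the deposited values, other scalings, filters, covariates and left-out libraries.

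All 10 members are named; from each pathway list, called genes and otherwise up to 2 with the smallest p; and the 5 genes nearest to Spp1. The members and lists were chosen with earlier results of these data known. The promoters shown (their motif matches known too), the subtraction of the macrophage score, the count of members fitted higher and the setting without 2 libraries were chosen after values were seen. One gene of the pathway lists is not reported here.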

Additional observations from a re-analysis of the deposited data

Results flagged for a closer look

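In 4 of the 40 combinations of member and group, 1 library lay far from the other 3, where chance gives about 1 in 20. Lgals3 had 12.96 log2 CPM in library 2 of Apoe-/-Mif-/- at 24 weeks, against 11.80 to 11.97 in the others, and Fabp5 had 10.07 in the same library, against 8.97 to 9.04. Fabp5 had 8.84 log2 CPM in library 4 of Apoe-/- at 42 weeks, against 9.75 to 9.90. Plin2 had 6.33 log2 CPM in library 1 of Apoe-/-Mif-/- at 42 weeks, against 8.87 to 9.23.

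For Fabp5 every library without Mif lay below those with it at 42 weeks and above them at 24 weeks. The interaction of -3.74 on the log2 scale missed the threshold (edgeR's quasi-likelihood test, Benjamini-Hochberg adjusted p = 0.0770).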

How the results depend on the processing

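Over all alternatives other than leaving out 1 library, the log2 fold changes of the 10 members in the 5 comparisons kept their direction and side of the threshold 471 times, turned sign 65 times and passed the test 4 times. Leaving out each library in turn gave 745, 54 and 1. That 1 was Lgals3 in the interaction without library 3 of Apoe-/- at 24 weeks (adjusted p = 0.0446, edgeR). RLE scaling gave a median log2 fold change of all genes of 0.54 for duration in Apoe-/-Mif-/-, against 0.12 in the reported fit. The share of all genes whose groups did not overlap was computed in the reported fit alone. No paired analysis was possible because each library is a different mouse and the numbers give only an order. With 4 mice a group and 378066 counts in the shallowest library, precision is limited. The named pathway genes turned sign in no alternative; under DESeq2 Itgax passed for duration in Apoe-/- (3.82) and Stab2 for Mif deletion at 42 weeks (-4.93), and the losses of called genes are given with them. The cause of each change was not tested.

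RLE size factors changed counts: genes called numbered 0 for Mif deletion at 24 weeks and 22 for duration in Apoe-/-Mif-/-. Under it, members whose groups did not overlap numbered 1 for Mif deletion at 42 weeks, 5 for duration in Apoe-/- and 0 for duration in Apoe-/-Mif-/-. There, members fitted higher numbered 8 for duration in Apoe-/-Mif-/-. RLE size factors turned the sign of Plin2 (-0.085) for Mif deletion at 24 weeks, Spp1 (0.35) for duration in Apoe-/-, Spp1 (0.36), Lgals3 (0.089) and Cd9 (0.46) for duration in Apoe-/-Mif-/- and Msr1 (0.36) for the interaction. Scaling by library totals alone changed counts: genes called numbered 4 for duration in Apoe-/-Mif-/- and 18 for the interaction. Under it, members fitted higher numbered 3 for duration in Apoe-/-Mif-/- and 1 for the interaction. Scaling by library totals alone turned the sign of Gpnmb (-0.31) and Trem2 (-0.14) for duration in Apoe-/-Mif-/- and Spp1 (-0.24) for the interaction. Testing without a filter on low counts changed counts: genes called numbered 117 for Mif deletion at 24 weeks, 150 for Mif deletion at 42 weeks, 18 for duration in Apoe-/-, 419 for duration in Apoe-/-Mif-/- and 426 for the interaction. Testing without a filter on low counts turned the sign of Msr1 (0.11) for the interaction. A filter of 20 counts in 4 libraries changed counts: genes called numbered 1 for Mif deletion at 24 weeks. DESeq2 changed counts: genes called numbered 262 for Mif deletion at 24 weeks, 709 for Mif deletion at 42 weeks, 330 for duration in Apoe-/-, 539 for duration in Apoe-/-Mif-/- and 480 for the interaction. Under it, members called numbered 2 for duration in Apoe-/-, 1 for duration in Apoe-/-Mif-/- and 1 for the interaction. There, members fitted higher numbered 8 for duration in Apoe-/-Mif-/-. DESeq2 turned the sign of Plin2 (-0.085) for Mif deletion at 24 weeks, Spp1 (0.34) for duration in Apoe-/-, Spp1 (0.36), Lgals3 (0.087) and Cd9 (0.46) for duration in Apoe-/-Mif-/- and Msr1 (0.36) for the interaction. Members that then passed were Lgals3 at 2.33 for duration in Apoe-/-, Fabp5 at 2.41 for duration in Apoe-/-, Cd36 at 3.70 for duration in Apoe-/-Mif-/- and Fabp5 at -3.58 for the interaction. The voom method of limma changed counts: genes called numbered 0 for Mif deletion at 24 weeks, 0 for duration in Apoe-/-Mif-/- and 0 for the interaction. The voom method of limma turned the sign of Cd36 (-0.11) for Mif deletion at 42 weeks, Spp1 (0.078) and Cd36 (0.38) for duration in Apoe-/-, Spp1 (0.13), Gpnmb (-0.24), Trem2 (-0.026) and Cd9 (0.023) for duration in Apoe-/-Mif-/- and Lpl (0.31) for the interaction. The deposited log2 values with limma changed counts: genes called numbered 0 for Mif deletion at 24 weeks, 0 for duration in Apoe-/-Mif-/- and 0 for the interaction. There, members whose groups did not overlap numbered 1 for Mif deletion at 42 weeks, 5 for duration in Apoe-/- and 0 for duration in Apoe-/-Mif-/-. Under it, members fitted higher numbered 8 for duration in Apoe-/-Mif-/-. The deposited log2 values with limma turned the sign of Spp1 (0.64) and Cd36 (0.17) for duration in Apoe-/-, Spp1 (0.47), Lgals3 (0.039) and Cd9 (0.46) for duration in Apoe-/-Mif-/- and Spp1 (-0.17) and Lpl (0.43) for the interaction. Fitting only the groups compared changed counts: genes called numbered 0 for Mif deletion at 24 weeks and 25 for Mif deletion at 42 weeks. Fitting only the groups compared turned the sign of Cd9 (0.011) for duration in Apoe-/-Mif-/-. A pan-macrophage covariate changed counts: genes called numbered 0 for Mif deletion at 24 weeks, 0 for duration in Apoe-/-Mif-/- and 0 for the interaction. There, members fitted higher numbered 3 for Mif deletion at 24 weeks, 8 for duration in Apoe-/-Mif-/- and 6 for the interaction. A pan-macrophage covariate turned the sign of Spp1 (-0.11), Gpnmb (-0.017), Trem2 (-0.019), Plin2 (-0.020) and Msr1 (-0.50) for Mif deletion at 24 weeks, Trem2 (0.012), Cd9 (0.17) and Cd36 (-0.17) for Mif deletion at 42 weeks, Cd36 (0.63) and Msr1 (-0.32) for duration in Apoe-/-, Spp1 (0.38), Lgals3 (0.19) and Cd9 (0.44) for duration in Apoe-/-Mif-/- and Trem2 (0.030), Cd9 (0.10), Lpl (0.31) and Msr1 (3.27) for the interaction. A white adipocyte covariate changed counts: genes called numbered 0 for Mif deletion at 24 weeks, 0 for duration in Apoe-/-Mif-/- and 0 for the interaction. Under it, members fitted higher numbered 5 for Mif deletion at 24 weeks, 8 for duration in Apoe-/-Mif-/- and 4 for the interaction. A white adipocyte covariate turned the sign of Spp1 (-0.51), Cd9 (-0.12) and Msr1 (-0.42) for Mif deletion at 24 weeks, Cd36 (-0.11) for Mif deletion at 42 weeks, Cd36 (0.47) for duration in Apoe-/-, Spp1 (0.93), Lgals3 (0.35) and Cd9 (0.86) for duration in Apoe-/-Mif-/- and Lpl (0.54) and Msr1 (1.23) for the interaction. Leaving out libraries 1 and 4 of Apoe-/- at 24 weeks (chosen after seeing the data) changed counts: genes called numbered 0 for Mif deletion at 24 weeks, 53 for duration in Apoe-/-Mif-/- and 0 for the interaction. There, members whose groups did not overlap numbered 2 for duration in Apoe-/-Mif-/-. Under it, members fitted higher numbered 4 for Mif deletion at 24 weeks. Leaving out libraries 1 and 4 of Apoe-/- at 24 weeks (chosen after seeing the data) turned the sign of Spp1 (-0.64), Gpnmb (-0.0071), Cd9 (-0.27) and Msr1 (-0.49) for Mif deletion at 24 weeks, Cd36 (1.00) for duration in Apoe-/- and Msr1 (0.75) for the interaction.

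With 1 library left out, genes called numbered 0 to 21 for Mif deletion at 24 weeks, 0 to 124 for the interaction, 0 to 36 for duration in Apoe-/-Mif-/- and 0 to 1 for Mif deletion at 42 weeks. Likewise, members called numbered 0 to 1 for the interaction. By the same fits, members whose groups did not overlap numbered 1 to 2 for duration in Apoe-/-Mif-/- and 1 to 2 for Mif deletion at 24 weeks. And members fitted higher numbered 1 to 5 for Mif deletion at 42 weeks, 1 to 4 for the interaction and 5 to 8 for Mif deletion at 24 weeks. Log2 values for Mif deletion at 24 weeks ran -0.26 to 0.63 for Plin2, -0.16 to 0.83 for Spp1 and -0.035 to 2.71 for Msr1. Log2 values for duration in Apoe-/-Mif-/- ran -0.14 to 0.18 for Cd9, -0.62 to 1.61 for Msr1, -0.36 to 0.28 for Spp1, -0.62 to 0.62 for Gpnmb and -0.19 to 1.13 for Trem2. Log2 values for Mif deletion at 42 weeks ran -0.96 to 0.087 for Trem2, -0.57 to 0.055 for Cd9, -0.24 to 1.179 for Cd36 and -1.38 to 1.83 for Msr1. Log2 values for duration in Apoe-/- ran -0.15 to 0.98 for Lpl, -0.25 to 3.39 for Msr1, -0.96 to 0.39 for Cd36 and -0.60 to 0.39 for Spp1. Log2 values for the interaction ran -0.53 to 0.62 for Lpl, -2.43 to 1.43 for Msr1, -0.52 to 0.48 for Spp1 and -2.92 to -1.97 for Lgals3.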
